A study of Mus musculus with 6 samples.

Results

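The serum amyloid A genes Saa1, Saa2, Saa3 and Saa4 and the short pentraxin genes Apcs and Crp were examined in whole-liver RNA. These 6 genes were taken by name from a table of 54532 genes, and each name matched 1 row. The series asked what Notch1 in hepatocytes does for the liver's output of thrombopoietin, and RNA was sequenced from 3 control livers and 3 livers of knockout mice. The controls carried the genotype Notch1fl/fl, that is, floxed Notch1 alleles, and the other group was labelled Hepatocyte Notch1 KO, with no treatment in either group. The Cre line that deleted Notch1, and the age, sex, feeding and time of collection of the mice are stated in none of the sources used here. The 3 columns taken as controls are headed NC in the table and were assigned to the controls by elimination, so each control value rests on that reading. Nothing says how the mice of a group were related, so a p-value here reflects only how much these 6 livers varied.

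Serum amyloid A proteins and short pentraxins are plasma proteins of the acute phase, the change in liver output that follows infection or injury. Interleukin 6, acting through STAT3, and interleukin 1, acting through NF-κB, together with C/EBP factors, are the known inducers of their genes in hepatocytes. Saa1 and Saa2 encode the acute-phase serum amyloid A that circulates on high density lipoprotein and can form amyloid. Saa3 is an acute-phase gene known for expression outside hepatocytes, in macrophages and fat, and Saa4 encodes the constitutive form. Apcs encodes serum amyloid P component, the main acute-phase pentraxin of mice, and Crp encodes C-reactive protein, which responds weakly in mice.

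The sequences upstream of 4 members are shown because 2 of them, Saa1 and Saa2, had nearly the same pattern over the livers, while Saa3 and Apcs each had another. All are from RefSeq on GRCm38.p6, read 5′ to 3′ on the strand of the gene, and stop before the first transcript start in RefSeq or in the deposited table, whichever comes first. The stretches are chr7:46742981-46743230 (minus strand) for Saa1, chr7:46751583-46751789 (plus strand) for Saa2, chr7:46715701-46715926 (minus strand) for Saa3 and chr1:172895055-172895304 (minus strand) for Apcs. Capitals mark a match to the C/EBP motif in Saa1 and Saa2 and to the STAT3 motif in Apcs.
Saa1: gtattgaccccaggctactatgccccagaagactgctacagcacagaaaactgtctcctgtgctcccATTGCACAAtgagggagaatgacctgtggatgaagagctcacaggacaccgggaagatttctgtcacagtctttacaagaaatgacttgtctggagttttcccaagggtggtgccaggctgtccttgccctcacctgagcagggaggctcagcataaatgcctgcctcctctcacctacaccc
Saa2: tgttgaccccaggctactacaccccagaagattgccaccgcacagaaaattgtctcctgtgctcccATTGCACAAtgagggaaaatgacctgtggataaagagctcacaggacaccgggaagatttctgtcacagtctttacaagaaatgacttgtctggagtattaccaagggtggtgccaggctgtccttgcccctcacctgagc
Saa3: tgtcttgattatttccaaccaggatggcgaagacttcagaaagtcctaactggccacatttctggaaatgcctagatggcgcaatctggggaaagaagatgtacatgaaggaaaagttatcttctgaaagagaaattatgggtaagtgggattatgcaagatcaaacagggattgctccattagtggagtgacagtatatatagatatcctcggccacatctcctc
Apcs: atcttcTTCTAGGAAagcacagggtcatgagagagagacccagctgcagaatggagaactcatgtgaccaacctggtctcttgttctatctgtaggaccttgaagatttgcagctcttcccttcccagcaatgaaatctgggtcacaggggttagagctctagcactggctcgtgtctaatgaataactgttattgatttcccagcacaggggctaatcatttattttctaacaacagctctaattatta

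All 6 members had an entry in the promoter table, and 5 motifs were searched in the 250 bases before each RefSeq start. They were the C/EBP motif TTNNGNAAT, the STAT3 motif TTCNNNGAA and consensus motifs of NF-κB and HNF1, all on both strands, and TATAAA on the gene's strand. Saa1 and Saa2 each held ATTGCACAA, a C/EBP match on the opposite strand, which starts 183 bases before the start site in Saa1 and 184 in Saa2. Apcs held the STAT3 match TTCTAGGAA, and Crp held the C/EBP match TTAGGAAAT together with TATAAA. Saa3 and Saa4 held no match to any of the 5 in this window, and none of the 6 genes held the NF-κB or HNF1 letters. Among 32851 promoters of the same length, 10.2% held the C/EBP motif, 7.02% the STAT3 motif, 4.11% the NF-κB motif, 0.234% the HNF1 motif and 7.59% TATAAA. A match is a string of letters, not evidence of binding.

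The sequence of Saa1 stood close to that of Saa2 and apart from the other members. Their 250 upstream bases were identical at 238 of 249 aligned positions (95.6%), against 59.4% for Saa1 and Saa3. Their coding sequences of 366 bases each (GENCODE M21, without the stop codon) were identical at 348 positions (95.1%). Saa3 matched Saa1 at 76.0% of aligned coding positions, Saa4 matched it at 68.6%, and Apcs and Crp matched each other at 59.2%. Reads of Saa1 and Saa2 can therefore be hard to tell apart. Of all 50-base windows of the Saa1-201 transcript, 13.2% occurred unchanged in Saa2-201, and of 100-base windows none (0%) did. The sources used here give neither the read length nor how such reads were counted.

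The 4 serum amyloid genes lie side by side on chromosome 7 (GRCm38). Saa3 spans 46711998 to 46715700, Saa4 46727998 to 46732603 and Saa1 46740497 to 46742980, all on the minus strand, and Saa2 spans 46751790 to 46754313 on the plus strand. Apcs (172893961 to 172895041, minus strand) and Crp (172698055 to 172833031, plus strand) lie on chromosome 1. The wide span of Crp comes from Crp-202, a non-coding transcript in the annotation. Each of the 6 is annotated as protein-coding, and the identifiers in the table are ENSMUSG00000074115 (Saa1), ENSMUSG00000057465 (Saa2), ENSMUSG00000040026 (Saa3), ENSMUSG00000040017 (Saa4), ENSMUSG00000026542 (Apcs) and ENSMUSG00000037942 (Crp).

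The libraries held 15612924 to 17511961 reads in genes, and levels are FPKM, the authors' fragment counts divided by gene length and by a factor for each library. Notch1 measured 0.618, 0.965 and 0.854 FPKM in controls 1 to 3, against 0.301, 0.540 and 0.292 in knockouts 1 to 3, with no overlap, in gene-level reads that add all exons and all liver cells. Its log2 change was -0.40 (SE 0.13, limma adjusted p = 0.257), short of the threshold. Of all genes tested, 10.6% did not overlap with the knockouts lower. Hepatocyte markers were abundant in all livers but lower in the knockouts on average: Alb, albumin, measured 29979 to 37515 FPKM in the controls and 20452 to 29087 in the knockouts, and 8 of 9 markers had lower means (median log2 change -0.18), with 0 past the threshold. Knockout 2 stood apart from the other knockouts: its scaling factor was 1.22, against 0.911 to 1.04 in the other 5 libraries, and 34.9% of the 12022 genes tested lay below the lowest control there, against 26.6% in knockout 1 and 30.1% in knockout 3. The members and most lists below are also given without this liver, a choice made with its values known. In bulk RNA, more cells of a type and more RNA per cell cannot be told apart.

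In controls the members fell into an abundant set and a scarce set. Apcs averaged 147 ± 28.4 FPKM, Crp 129 ± 4.16 and Saa4 125 ± 26.0 (SD, n = 3), and the ranges of these 3 genes overlapped. Saa1 averaged 23.3 ± 16.1, Saa2 6.98 ± 4.54 and Saa3 1.23 ± 0.337, and these 3 did not overlap each other or the abundant set. Knockout 2 kept the same order, with Apcs highest at 105 and Saa3 lowest at 3.90. In knockouts 1 and 3 Saa1 came first and Saa2 next, then Apcs, Saa4, Crp and Saa3. The order depends on the length used. The table's lengths of Saa1, Saa2 and Saa3 are 4.07, 4.16 and 4.70 times those of the transcripts Saa1-201, Saa2-201 and Saa3-201, that of Crp is 2.03 times that of Crp-201, and those of Saa4 and Apcs equal those of Saa4-201 and Apcs-201. Per kilobase of these transcripts, a scale chosen after the data were seen, the control means were 263 for Crp, 147 for Apcs, 125 for Saa4, 94.8 for Saa1, 29.0 for Saa2 and 5.80 for Saa3. On that scale Apcs, Saa4 and Saa1 overlapped, and Crp lay above all of them.

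**Figure D1:**
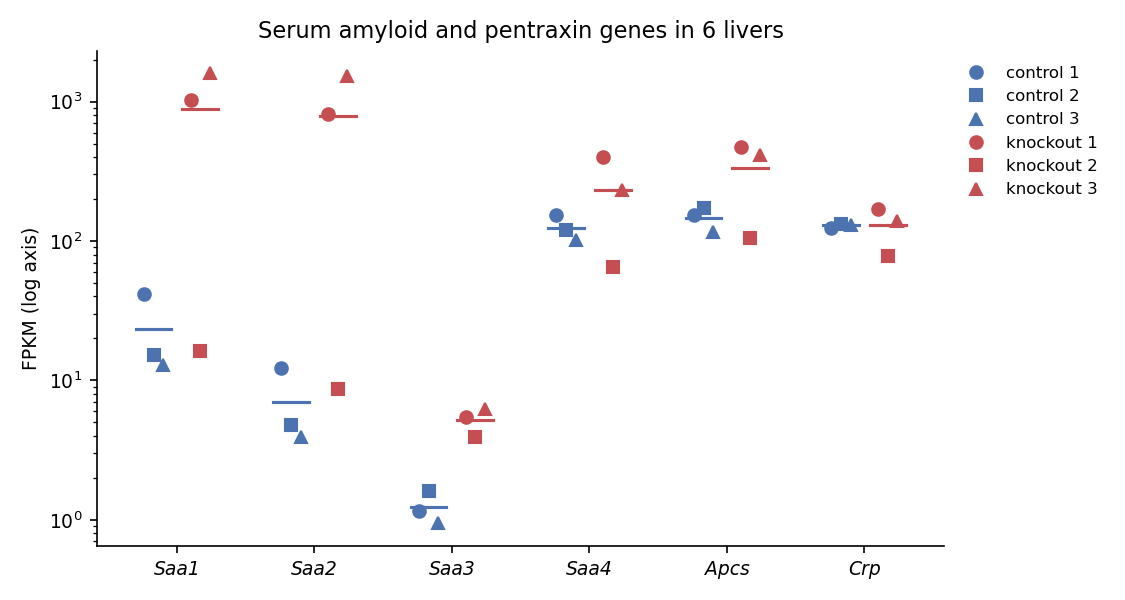
FPKM of each member in each liver on a log axis, with controls in blue, knockouts in red, marker shape for the replicate number and a bar at each group mean. Knockouts 1 and 3 lie above the controls for all 6 genes, and knockout 2 does so for Saa3 alone.

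Saa1 and Saa2 were very high in 2 knockout livers and at control levels in the other. Saa1 measured 41.9, 15.2 and 12.8 FPKM in controls 1 to 3, against 1023, 16.2 and 1596 in knockouts 1 to 3. Saa2 measured 12.2, 4.79 and 3.94 among controls and 813, 8.62 and 1537 among knockouts. Knockouts 1 and 3 were thus 43.9 and 68.5 times the control mean for Saa1 and 116 and 220 times for Saa2, while knockout 2 was 0.694 and 1.24 times it. The groups overlapped for both genes. Among the controls, control 1 was the highest for both.

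The reads behind these levels were many. Saa1 had 527 to 1557 reads in the controls and 803 to 67634 in the knockouts, and Saa2 had 165 to 461 and 435 to 66174. Together the pair took 0.439% of all reads in knockout 1 (95% Wilson interval 0.436 to 0.442%) and 0.846% in knockout 3 (0.842 to 0.851%). In knockout 2 they took 0.00707% (0.00669 to 0.00747%), and in the controls 0.00412 to 0.0126%. The intervals cover counting error only.

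Neither gene passed the test over all genes. It was run with limma on log2(FPKM + 1), with Benjamini-Hochberg adjustment over the 12022 genes whose mean reached 0.5 FPKM. Of these, 3 (0.0250%) had an adjusted p under 0.05, 1 higher (0.00832%) and 2 lower (0.0166%) in the knockouts. The log2 change, knockout minus control, was 3.84 for Saa1 (SE 1.62, 95% interval -0.01 to 7.68, limma adjusted p = 0.360) and 4.99 for Saa2 (SE 1.78, 95% interval 0.79 to 9.19, limma adjusted p = 0.291). Without knockout 2 both rose, Saa1 with a log2 change of 5.91 (SE 0.50, limma adjusted p = 0.0218) and Saa2 with 7.27 (SE 0.47, limma adjusted p = 0.0100). Knockout 2 held both genes at control levels, so leaving it out had to raise both changes and gives no separate support for them. Without that liver 29 genes passed (0.241% of those tested), 19 of them higher (0.158%).

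The balance between Saa1 and Saa2 differed between the groups in all 3 knockouts. Saa1 stood at 3.43, 3.19 and 3.25 times Saa2 in controls 1 to 3, against 1.26, 1.88 and 1.04 times in knockouts 1 to 3. The groups did not overlap, and knockout 2, whose levels of both genes were within the range of the controls, had a ratio below every control. The exact two-sided permutation test over the livers gave p = 0.1, the smallest value that 3 against 3 allows. It was 1 of 5 ratios between members computed, chosen after the data were seen. The ratio of Apcs to Crp was higher in each knockout (2.79, 1.33 and 2.99) than in any control (1.22, 1.30 and 0.893), also with an exact p = 0.1, although knockout 2 exceeded control 2 only narrowly. The ratios of Saa1 to Saa4, Saa1 to Apcs and Saa2 to Saa3 overlapped (exact two-sided p = 0.2, 0.2 and 0.4). Adjustment over the 5 ratios can only raise these values. Shared reads of Saa1 and Saa2 could enter the first ratio, and their part in it was not tested.

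**Figure D2:**
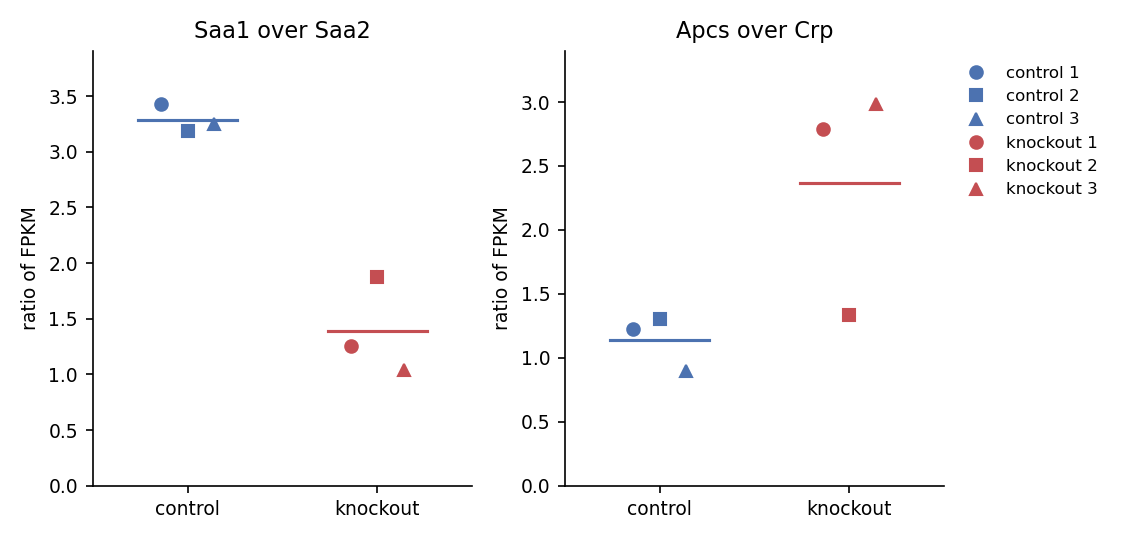
Ratio of FPKM values within each liver, Saa1 over Saa2 on the left and Apcs over Crp on the right, with bars at the group means. The Saa1 to Saa2 ratio is 3.19 to 3.43 in the controls and 1.04 to 1.88 in the knockouts.

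Saa3 was low in all livers but was the member whose groups did not overlap. It measured 1.15, 1.61 and 0.947 FPKM in controls 1 to 3 (45, 67 and 41 reads) and 5.44, 3.90 and 6.24 in knockouts 1 to 3 (212, 204 and 278 reads). Knockout 2 lay above every control here, at 3.16 times the control mean, against 4.41 and 5.06 times in knockouts 1 and 3. The means stood 4.21-fold apart. The groups did not overlap in 19.8% of all genes tested, with the knockouts higher in 9.20% and lower in 10.6%, so the lack of overlap by itself is common in these data.

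The log2 change of Saa3 was 1.46 (SE 0.18, 95% interval 1.05 to 1.88), with a limma adjusted p of 0.0877, above the threshold of 0.05. By unadjusted p, Saa3 ranked at place 8 of the 12022 genes. Without knockout 2 it rose (log2 change 1.62, SE 0.15, limma adjusted p = 0.0263). With the replicate number as a block its adjusted p was 0.101. Its log2 change stayed between 1.34 and 2.06 over 18 alternative settings, the upper end from a fit on recovered reads.

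Markers of mesothelium, the cell layer that covers the liver, moved with the groups as Saa3 did. The 9 mesothelial markers summed to 6.11, 14.3 and 58.7 FPKM in controls 1 to 3, against 95.6, 163 and 127 in knockouts 1 to 3. All 8 that could be tested had higher means in the knockouts (median log2 change 1.71, and 1.57 without knockout 2), and 0 passed the threshold with all livers. Without control 3 Msln and Upk1b passed (limma adjusted p = 0.0233 and 0.0464), where 58 genes passed in all. Control 3 was the highest control for both, so leaving it out had to raise both changes. The groups did not overlap in 7 of them, where 9.20% of all genes tested did not overlap with the knockouts higher. Msln, which encodes mesothelin, measured 2.02, 3.90 and 19.1 among controls and 36.6, 60.7 and 41.8 among knockouts. The order within the groups was not that of Saa3: the mesothelial sum was highest in knockout 2, where Saa3 was the lowest of the knockouts, and control 3 had the highest mesothelial sum and the lowest Saa3 of the controls. The part of these cells in the level of Saa3 was not tested.

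Macrophages and fat cells are also known to express Saa3. The 10 Kupffer cell and macrophage markers summed to 260 to 350 FPKM in the controls and 279 to 352 in the knockouts, with overlap. The 9 adipocyte markers summed to 10.2 to 11.7 in the controls and 11.8 to 14.4 in the knockouts, narrowly without overlap. Of the 4 tested, 3 had higher means (median log2 change 0.19), and without knockout 2 only 1 did (median -0.0373). Of the defining fat cell markers, Lep was at 0 in all livers, Plin1 was at most 0.0252 and Adipoq, the fat cell hormone adiponectin, was at 0 in 4 livers and at 0.0484 and 0.169 in knockouts 1 and 3. The 10 neutrophil markers summed to 6.88, 9.46 and 19.6 in controls 1 to 3, against 21.7, 11.7 and 38.9 in knockouts 1 to 3, so they were highest in the 2 livers with high Saa1 and Saa2. That sum came mostly from S100a8 and S100a9, while Ly6g had 1 read in all and Mpo at most 6 per liver. Elane had 0, 6 and 4 reads in controls 1 to 3 and 0, 0 and 10 in knockouts 1 to 3. In knockout 1 Mpo likewise had 0 reads. Of the 5 neutrophil markers tested, 3 had higher means in the knockouts and 2, Camp and Csf3r, lower, and 0 passed. Bile duct markers summed to 16.0 to 19.2 in the controls and 27.1 to 36.6 in the knockouts, with higher means in 5 of 5 tested and 0 past the threshold. There was no overlap in 3 of the 5, where 9.20% of all genes tested did not overlap with the knockouts higher. The part of any of these cell types in a member's level was not tested.

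**Figure D3:**
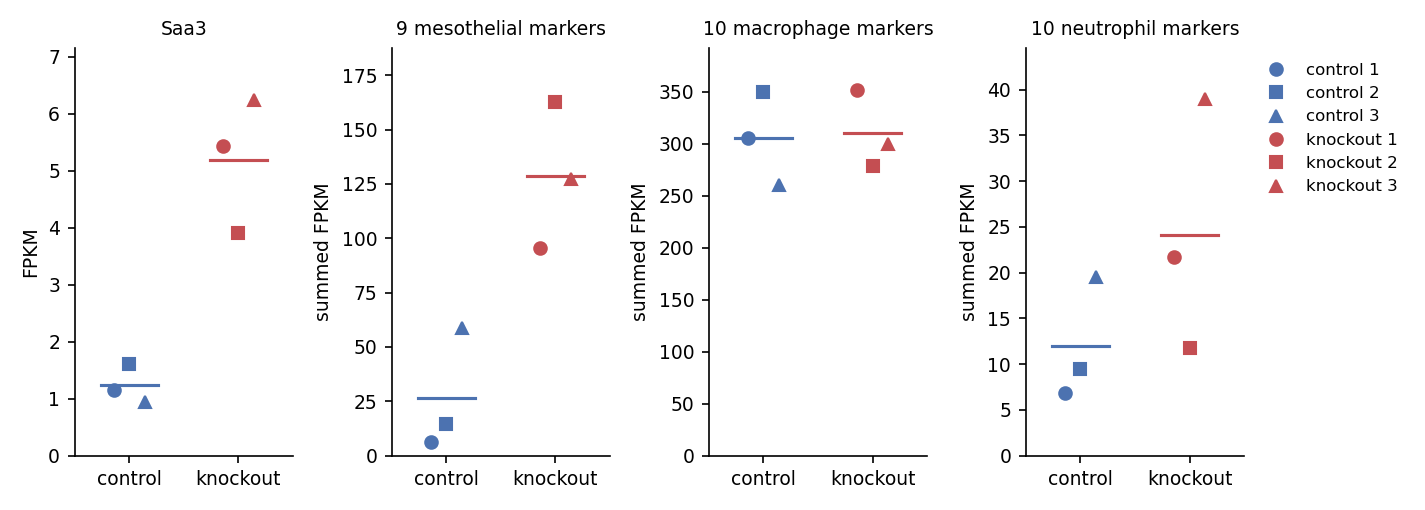
FPKM of Saa3 and summed FPKM of mesothelial, macrophage and neutrophil markers in each liver, with bars at the group means. Saa3 and the mesothelial sum are higher in every knockout than in any control, whereas the macrophage sums overlap.

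Saa4, the constitutive serum amyloid, spread widely among the knockouts. It measured 152, 121 and 101 FPKM among controls and 402, 65.4 and 231 among knockouts. Knockouts 1 and 3 lay above every control and knockout 2 below every control. The log2 change was 0.57 (SE 0.60, 95% interval -0.86 to 1.998, limma adjusted p = 0.731), and without knockout 2 it was 1.30 (SE 0.27, limma adjusted p = 0.167), still short of the threshold. Without knockout 1 it was 0.0037, so that single liver set most of the difference.

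Apcs, the mouse acute-phase pentraxin, followed the same split with a smaller range than Saa1. It measured 152, 173 and 117 FPKM among controls and 473, 105 and 416 among knockouts, which is 3.21, 0.712 and 2.83 times the control mean in knockouts 1 to 3. Its log2 change was 0.91 (SE 0.55, 95% interval -0.38 to 2.21, limma adjusted p = 0.510). Without knockout 2 Apcs rose, with a log2 change of 1.60 (SE 0.18, limma adjusted p = 0.0425).

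Crp had equal means in the groups. It measured 125, 132 and 131 FPKM among controls and 170, 78.6 and 139 among knockouts. The group means were 129 ± 4.16 and 129 ± 46.3 (SD, n = 3), so the spread among knockouts was much the larger. The log2 change was -0.07 (SE 0.27, 95% interval -0.70 to 0.56, limma adjusted p = 0.938), and without knockout 2 it was 0.25 (SE 0.12, limma adjusted p = 0.474). Its sign also changed with quantile normalization, scaling by total reads and array weights.

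Over the members, 5 of 6 had higher means on the log2 scale in the knockouts, with a median log2 change of 1.19, against -0.01 over all genes tested, of which 48.1% were higher. The ratio of group means reached 2 for Saa1, Saa2, Saa3 and Apcs, as it did for 3.35% of all genes, and none of the 6 was lower by that factor, as 1.80% of all genes were. With limma over all livers 0 of the 6 passed, where 0.0250% of all genes did. At an unadjusted p under 0.05 there were 2 of the 6, Saa2 and Saa3, and 1670 of the 12022 genes. Without knockout 2 there were 4 that passed, Saa1, Saa2, Saa3 and Apcs, where 0.241% of all genes did. Knockout 2 was the lowest knockout for all 6 members, so leaving it out had to raise each log2 change. All 6 exceeded the highest control in knockout 1 and in knockout 3, where 26.7% and 27.8% of all genes did. In knockout 2, 1 member (Saa3) exceeded it, where 30.8% of all genes did, and 3 (Saa4, Apcs and Crp) were below the lowest control. The members were picked with these values known, so the counts describe them.

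**Figure D4:**
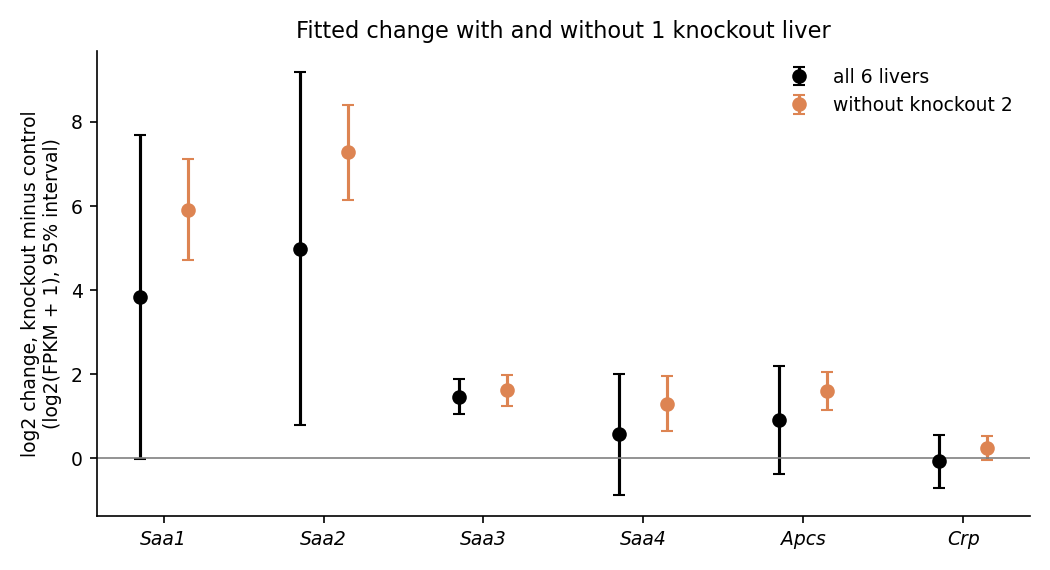
Log2 change of each member, knockout minus control, on log2(FPKM + 1) with 95% intervals from limma, in black for all 6 livers and in orange without knockout 2. Without that liver the intervals of Saa1 and Saa2 shrink and that of Saa1 no longer reaches 0.

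Genes listed as other acute-phase plasma proteins, a list chosen by hand, were mostly above the controls in knockouts 1 and 3 and not in knockout 2. Of 28 tested genes, 24 had higher means in the knockouts and 4 lower, with a median log2 change of 0.32, and 0 passed over all genes in either direction. In knockout 1, 24 of the 28 exceeded the highest control and in knockout 3 20 did, where 26.7% and 27.8% of all genes did. In knockout 2 only 4 exceeded it, where 30.8% of all genes did, and 17 lay below the lowest control, where 34.9% did. Hp, haptoglobin, which binds free hemoglobin, measured 1452, 1246 and 1315 FPKM among controls and 3721, 1292 and 3723 among knockouts. Lcn2, lipocalin 2, an iron-siderophore binder, measured 2.74, 1.83 and 1.58 FPKM among controls and 44.7, 1.41 and 70.3 among knockouts. C3, the central complement component, measured 856, 883 and 1065 among controls and 1405, 1211 and 1299 among knockouts, and did not overlap (log2 change 0.49, limma adjusted p = 0.251). Without knockout 2, 24 of the 28 had higher means and the median was 0.61. Of these, 5 passed the threshold (Hp, Orm2, Lcn2, Lbp and Fgl1), where 0.158% of all genes tested passed as higher. Hamp, which encodes the iron hormone hepcidin and was chosen after its values were seen, went the other way, at 1555, 850 and 904 among controls and 490, 1141 and 380 among knockouts.

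**Figure D5:**
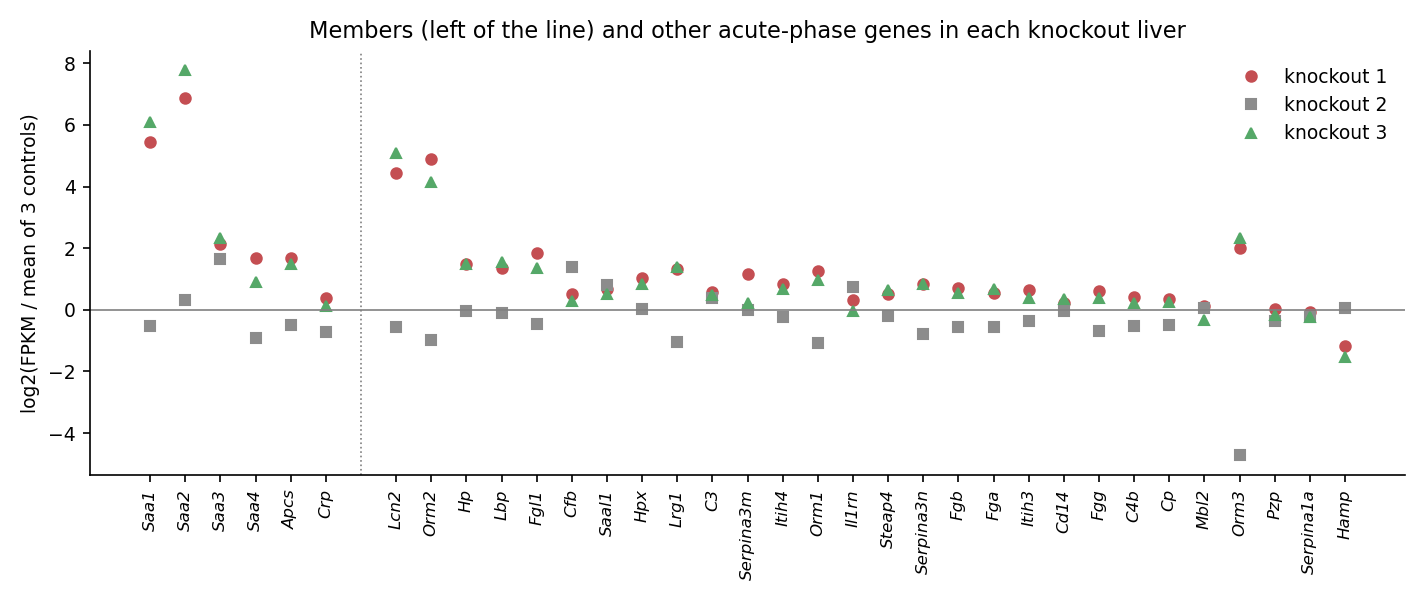
Log2 of the FPKM of each knockout liver over the mean of the 3 controls, for the 6 members left of the dotted line and 28 other genes listed as acute-phase right of it, ordered by their mean. Knockout 2 lies near or below 0 for most of them. Saa2 and Saa3 are above 0 in all 3 knockouts, as are Hpx, C3, Cfb and Saal1 among the other genes.

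By shape over the 6 livers, the 3 genes nearest to Saa1 and Saa2 were acute-phase genes. Each gene's log2(FPKM + 1) was set to 0 in its lowest liver and 1 in its highest, and likeness was the mean absolute difference between such profiles over the 6 livers, for 1010 genes with a range of at least 1. Saa1 and Saa2 were nearer to each other (0.0270) than to any of these. Lbp, the lipopolysaccharide-binding protein (0.0366 from Saa1), Lcn2 (0.0377), Hp (0.0481), Prtn3, a serine protease of neutrophil granules (0.0483), and Tifa, an adaptor in NF-κB signalling (0.0664), came next, and the same 5 genes led for Saa2. Lbp measured 15.3, 14.0 and 13.7 FPKM among controls and 36.8, 13.4 and 41.8 among knockouts. Prtn3 measured 0.885, 0.973 and 0.834 among controls and 12.8, 1.01 and 13.7 among knockouts (limma adjusted p = 0.302, and 0.000900 without knockout 2). Prtn3 was picked for its likeness to Saa1, so a small p without knockout 2 was built in and gives no separate support. These profiles share their livers and are mostly set by knockouts 1 and 3.

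The other members had other neighbours in shape. Apcs was nearest to Orm2, an orosomucoid (0.0411; 15.3, 18.0 and 9.78 FPKM in the controls, 423, 7.34 and 254 in the knockouts), then Sdf2l1, Fgl1, Crybb3 and Ccl6. Saa3 had no close match: its nearest genes were Mt2, a metallothionein (0.103), Slc3a1, Acnat2, Cd207 and Slc10a2 (0.134). Mt2 measured 0.907, 0.637 and 2.46 among controls and 39.5, 12.3 and 41.3 among knockouts, so knockout 2 was intermediate as for Saa3 (limma adjusted p = 0.0953, and 0.0137 without knockout 2). Mt2 was picked for its likeness to Saa3, so these p-values give no separate support. Saa4 was nearest to Mup9 (0.0204), Tsku, Rnase4, Cyp3a13 and Ccl6. Crp was nearest to Mup13 (0.0363), Kmo, Adh4 and Aldh1a1, genes that were lowest in knockout 2. Mup genes are near-identical copies, so their values are uncertain. Between members, Saa3 and Crp were the least alike (0.448).

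Of 12 listed cytokines that can induce these genes, 3 could be tested, and 0 passed with or without knockout 2. The other 9 were under the filter. Il6 had 0 to 3 reads per liver, Tnf 1 to 5 and Osm 0 to 3, so differences in them were not detectable at this depth. Lif, leukemia inhibitory factor, had 0, 1 and 2 reads among controls and 0, 28 and 7 among knockouts. Il1b measured 1.26, 1.64 and 3.85 FPKM among controls and 1.33, 2.75 and 3.19 among knockouts, and Il1a 1.55, 2.72 and 3.20 against 1.66, 1.64 and 1.60. Il18 lay between 8.29 and 12.1 in the controls and between 10.2 and 10.4 in the knockouts. None of the 3 was high in the same livers as Saa1.

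Among receptors and signal carriers of the pathway none of those tested passed (0 of 13 receptors and adaptors and 0 of 22 signal carriers and transcription factors). Il6ra, the interleukin 6 receptor, measured 2.51, 3.11 and 3.18 FPKM among controls and 6.08, 5.06 and 4.68 among knockouts, without overlap (limma adjusted p = 0.112). Il18r1, the interleukin 18 receptor, measured 0.0415, 0.194 and 0.675 against 2.40, 3.51 and 2.74 (limma adjusted p = 0.0877). Lifr, the receptor for leukemia inhibitory factor, measured 34.3, 27.2 and 30.1 against 24.7, 14.3 and 18.4, and Il1rap, the interleukin 1 co-receptor, 15.6, 16.0 and 14.8 against 13.1, 8.99 and 8.79. In these 4 genes knockout 2 lay on the same side of the controls as the other knockouts.

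Among the factors, Stat3 had the split seen in Saa1, at 8.47, 7.52 and 10.8 FPKM among controls and 14.2, 7.92 and 13.1 among knockouts. Cebpa, a hepatocyte transcription factor, measured 184, 148 and 156 among controls and 121, 108 and 91.6 among knockouts (limma adjusted p = 0.166). Creb3l3, a membrane-bound factor known to induce Apcs and Crp, measured 97.0, 90.6 and 96.4 against 78.1, 61.9 and 80.5. Fosl2 overlapped. The median log2 change was 0.08 over the receptors and 0.01 over the factors, and without knockout 2 it was 0.09 and 0.04, with 0 past the threshold. Scaling by total reads moved the median of the factors to 0.14.

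Plasma proteins known to fall in the acute phase had lower means in 11 of 12 cases (median log2 change -0.22, and -0.29 without knockout 2), and 0 passed. The median depended on the scaling: it was -0.10 with quantile normalization and -0.0806 with total reads. Rbp4, the retinol carrier, measured 2161, 1995 and 2092 FPKM among controls and 1752, 1616 and 1459 among knockouts, and Fetub and Igf1 likewise did not overlap (limma adjusted p = 0.341, 0.279 and 0.271). Of the 12 genes, 5 did not overlap with the knockouts lower, where 10.6% of all genes tested did not. Genes of high density lipoprotein, the particle that carries Saa1 and Saa2, had lower means in 14 of 15 cases (median -0.23, and -0.26 without knockout 2), and 0 passed. Here the median was -0.0980 with quantile normalization, -0.0917 with total reads and -0.18 without control 3. The lower hepatocyte markers (median -0.18) moved with both lists, but the lists share genes. The markers Alb, Ttr and Apoa1 are also on the first list and Apoa1 on the second, and Apoa1 and Apoa4 are on both. The part of the hepatocyte markers in these medians was not tested. Lipc, hepatic lipase, measured 89.5, 108 and 87.3 against 72.3, 55.9 and 57.9 (limma adjusted p = 0.165). Apoa2, an abundant apolipoprotein of that particle, measured 13671, 14280 and 13022 against 11865, 10510 and 9664. In both lists knockout 2 was mostly on the side of the other knockouts, with 7 of 12 and 10 of 15 genes below the lowest control, where 34.9% of all genes were.

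Receptors and ligands that serum amyloids and pentraxins bind gave 10 higher and 5 lower means among 15 tested (median log2 change 0.08, 0.10 without knockout 2 and 0.22 with scaling by total reads), and 0 passed with or without that liver. Fpr2, a formyl peptide receptor on myeloid cells that binds serum amyloid A, measured 0.874, 0.867 and 0.696 FPKM among controls and 1.70, 0.770 and 1.85 among knockouts, the split of Saa1 again. Fcgr2b, an Fc receptor of the class that binds pentraxins, measured 8.72, 9.94 and 6.60 among controls and 7.93, 4.26 and 5.38 among knockouts, with overlap.

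Relatives of the members were at or near 0. Of 9 listed, 8 were in the table and 0 reached the filter. Ptx3, the long pentraxin, had 0 reads in all 6 livers, and Mptx2, a mucosal pentraxin, had 1 read in control 3. Nptxr, the neuronal pentraxin receptor, had 1 to 7 reads in the controls and 10 to 24 in the knockouts, at most 0.233 FPKM.

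Within 100 kb of the 4 serum amyloid genes, 6 other genes were tested and 0 passed. Saal1 (46686108 to 46710680), which ends just before Saa3, measured 0.445, 0.440 and 0.402 FPKM among controls and 0.687, 0.747 and 0.615 among knockouts, without overlap (54 to 57 and 83 to 121 reads, limma adjusted p = 0.342). Sergef, beyond it, averaged 0.765 ± 0.153 in the controls and 1.31 ± 0.0719 in the knockouts, also without overlap. On the Saa2 side, Hps5 averaged 1.55 ± 0.133 against 1.43 ± 0.180 and Gtf2h1 10.1 ± 0.939 against 9.82 ± 1.19 (SD, n = 3), both with overlap. Ldha, lactate dehydrogenase A, measured 231, 232 and 248 among controls and 314, 242 and 334 among knockouts, so knockouts 1 and 3 were high and knockout 2 was not, as for Saa1. The remaining gene was the processed pseudogene Gm9392, which also overlapped.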

How the data were processed

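Per the labels' protocols, liver RNA came from a Trizol extraction, poly-T beads selected the messenger RNA, and the library kit was NEBNext Ultra. Named in the submitters' processing notes are GRCm38, featureCounts 1.5.0-p3 and HISAT2 2.0.5. The authors deposited FPKM for 54532 genes. Neither the strand setting nor the FPKM formula is stated. Multiplied by the deposited gene length, each library's FPKM fell on multiples of a single step (within 0.1 read for 100% of values above 0), from which reads and depth were recovered. The divisors followed median-ratio factors, so scaling was part of the values. A gene 1 kb long with 3 reads has 0.150 to 0.201 FPKM.

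The 12022 genes averaging 0.5 FPKM or more were tested with limma 3.58.1 in R 4.3.3 (lmFit, eBayes with trend) on log2(FPKM + 1), 3 knockouts against 3 controls, two-sided, threshold 0.05 after Benjamini-Hochberg adjustment. A fold change on this scale understates the change of low genes. Alternatives were 2 pseudocounts, 2 filters, 3 scalings, 2 eBayes settings, array weights, a replicate block, limma voom on recovered reads and leaving out each library. Deviations of same-numbered libraries of the 2 groups correlated across genes at r = 0.31, 0.16 and 0.10, against -0.25 to 0.11 for other pairs. Control 3 was slightly closer to knockout 2 (0.11) than to knockout 3 (0.10). Any pairing by number thus comes from the values alone and is unclear for number 3, and the block was an alternative fit. It left 0 genes past the threshold instead of 3.

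The members, lists and alternatives were chosen with earlier results of these data known. Named genes were the 6 members, up to 4 of each list with the smallest p, and the 5 nearest in shape to each member without predicted genes. 1 gene that this rule names is not reported here. No set test was run. A table of proteins was not used here.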

Additional observations from a re-analysis of the deposited data

How the results depend on the processing

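Saa1, Saa2, Saa3, Saa4 and Apcs kept their direction in all 18 alternatives. Leaving out single livers moved the log2 change over 2.64 to 5.91 for Saa1, 3.61 to 7.27 for Saa2, 1.34 to 1.62 for Saa3, 0.0037 to 1.30 for Saa4, 0.52 to 1.60 for Apcs and -0.30 to 0.25 for Crp. Saa1, Saa2, Saa3 and Apcs passed the threshold without knockout 2 and under none of the other 17. Crp changed sign with quantile normalization (0.0163), scaling by total reads (0.0708), array weights (0.0414) and without knockout 2 (0.25). The count of genes past the threshold, 3 as reported, was 1 with a pseudocount of 0.1, 0 without a filter, 0 with the replicate block, 15 with limma voom on recovered reads and 0 to 58 when single livers were left out (1 without control 1, 0 without control 2 or knockout 1, 58 without control 3 and 29 without knockout 2). Besides Msln and Upk1b, Il18r1 and Cd207 passed without control 3 (limma adjusted p = 0.0304 and 0.0464), which was their highest control. The replicate block changed no call of a member (limma adjusted p = 0.251 for Saa1, 0.211 for Saa2 and 0.101 for Saa3). Scaling by total reads moved the median of all genes by 0.10 on the log2 scale.

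Some other named genes changed sign when single livers were left out. Their log2 changes ranged over -0.11 to 0.44 for Il1b, -0.0295 to 0.22 for Il18, -0.20 to 2.12 for Mup9, -0.0181 to 0.59 for Tsku, -0.098 to 0.92 for Rnase4, -0.0665 to 0.43 for Cyp3a13, -1.94 to 1.22 for Mup13, -0.37 to 0.22 for Kmo, -0.52 to 0.17 for Adh4 and -0.43 to 0.17 for Aldh1a1. Mup13 also did so with array weights (0.0494), and Kmo (0.0148) and Aldh1a1 (0.0030) with scaling by total reads. The cause was not tested. With 3 livers a group, an exact test cannot go below p = 0.1.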
